A study of Mus musculus with 2 samples.

Results

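The genes described are 10 subunits and motor ATPases of ESCRT-III, the filament machinery that pinches off and reseals membranes: Chmp1a, Chmp1b, Chmp2a, Chmp2b, Chmp3, Chmp4b, Chmp5, Chmp6, Vps4a and Vps4b. They were chosen by symbol, each stood on 1 row, and together they were 10 of the 23466 rows of a table of bulk RNA-seq values. The cells were mouse cultures labelled primary microglia. One library came from cells given 1600 μM iron together with 1 μM RSL3, and the other from cells given DMSO. RSL3 inhibits GPX4, which detoxifies lipid peroxides, and the pair of agents served to induce ferroptosis, a death that depends on iron and in which peroxidised lipids damage membranes. The labels give no mouse strain, age or length of treatment, and the title of the series names Per2, but neither library is labelled with a Per2 genotype.

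Each condition had 1 library, so differences are given by size alone, without replicates, errors or tests, and they hold for these 2 libraries. Effects of iron and of RSL3 cannot be told apart, since no library had just one of them. Values are FPKM, fragments scaled by transcript length and by library size, which allows levels to be compared between genes. Changes are log2(FPKM + 1), iron plus RSL3 minus DMSO. Genes with at least 1 FPKM in one or both libraries counted as measured, 11771 in all, and the limit for calling one higher or lower was 2-fold on that scale. On the deposited scale 74.3% of measured genes were lower by any amount and 25.7% higher. Over all measured genes the log2 change had a median of -0.38 and quartiles of -0.73 and 0.01. That median depended on the scale, at -0.51 with equal FPKM totals and -0.19 when centred on the median ratio of abundant genes. The FPKM total was itself higher with iron plus RSL3, at 429250 against 385141 with DMSO. The defining microglial markers Aif1 and Cx3cr1 were listed at 0 in both libraries, and P2ry12 (0.04 and 0.05 FPKM) and Ptprc (0.11 and 0.07 FPKM) were near 0 with iron plus RSL3 and with DMSO. Of 12 microglial markers, 8 were under 1 FPKM in both libraries and 3 were at 0 in both, and Tmem119, also made outside microglia, was at 26.1 FPKM with iron plus RSL3 and 59.1 FPKM with DMSO. All 12 fibroblast and mural markers reached 10 FPKM in both libraries, among them Col1a1 (753.7 and 1002 FPKM) and Acta2 (805.3 and 1273 FPKM). Summed over the list, those 12 markers stood at 8094 FPKM with iron plus RSL3 and 8928 FPKM with DMSO, against 89.2 and 116.0 FPKM for the microglial list. Markers of astrocytes, the oligodendrocyte lineage, neurons and endothelium summed to between 1.82 and 17.2 FPKM per list with iron plus RSL3 and between 1.025 and 21.8 FPKM with DMSO. The part of cell make-up in the values below was not tested, and in bulk RNA fewer cells of a type and less RNA per cell cannot be told apart.

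ESCRT-III proteins lie inactive in the cytosol and, once recruited to a membrane, polymerise into spiral filaments that draw its edges together. VPS4, a AAA ATPase, pulls subunits out of the filament, which drives constriction and returns subunits for reuse. The same machinery closes endosomal vesicles, separates daughter cells, reseals the nuclear envelope and repairs the plasma membrane after calcium entry. In dying cells it sheds or seals damaged membrane and delays rupture, and depletion of CHMP5 or CHMP6 has been reported to sensitise human cells to ferroptosis.

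All 10 genes were measured and none passed 2-fold, beside 4.25% of all measured genes higher and 11.8% lower, or 16% either way. Among genes with a mean of 5 FPKM or more, as all 10 had, these shares were 4.68% and 9.86%. A count of 0 among 10 genes is not far from such shares and does not set the 10 apart. At 1.5-fold, 0 of the 10 were higher and 3 lower (Chmp6, Chmp1a and Vps4a), beside 8.28% and 34.7% of all measured genes. Chmp4b was higher with iron plus RSL3 and the other 9 genes were lower, against 25.7% of all measured genes higher and 74.3% lower by any amount, and Chmp2a, Chmp5 and Vps4b turned to higher when the libraries were centred on the median ratio of abundant genes. The log2 changes ran between -0.90 for Chmp6 and 0.30 for Chmp4b, with a median of -0.33 over the 10 genes beside -0.38 over all measured genes. Summed over the 10 genes the level was 403.5 FPKM with iron plus RSL3 and 450.8 FPKM with DMSO, a ratio of 0.90. Chmp4b alone made up much of this sum, and the other 7 CHMP genes summed to 216.6 FPKM with iron plus RSL3 and 281.7 FPKM with DMSO, a ratio of 0.77.

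**Figure D1:**
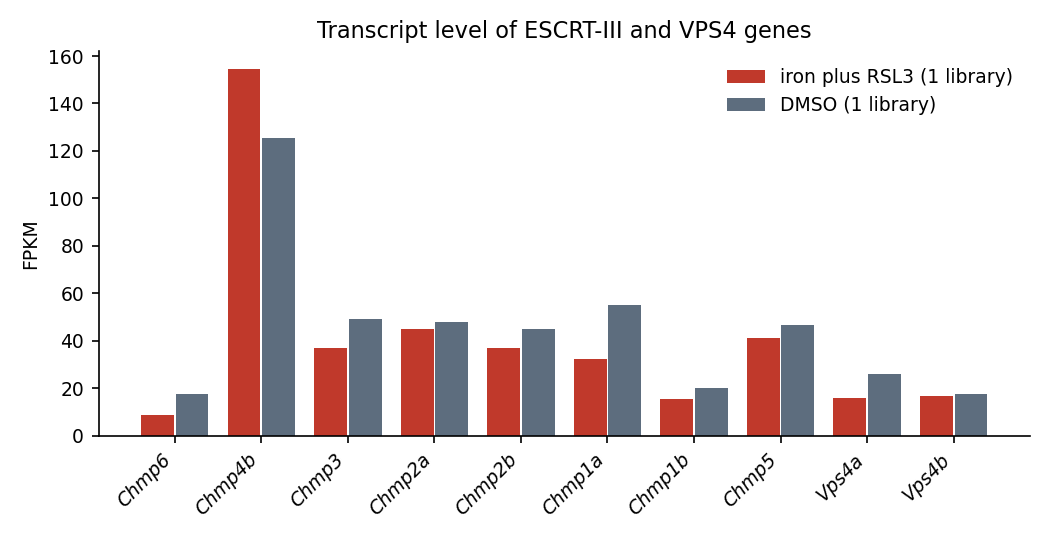
Level of each gene in FPKM (bars from 0) in the single library of cells given iron plus RSL3 (red, left bar) and the single library given DMSO (grey, right bar), ordered by role from the nucleating subunit Chmp6 to the VPS4 ATPases. Chmp4b stands above all the others in both libraries and is the only one with the taller bar for iron plus RSL3 on the deposited scale, while Chmp1a shows the widest gap the other way, at 32.5 FPKM with iron plus RSL3 and 55.2 FPKM with DMSO.

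The nucleating and polymerising subunits lay at opposite ends of the set. Chmp6 (chromosome 11, 119913441 to 119919548, plus strand, GRCm38) encodes the lipid-anchored subunit that binds ESCRT-II and starts the filament. It was the weakest of the 10 genes in both libraries, at 8.91 FPKM with iron plus RSL3 and 17.5 FPKM with DMSO, 1.96-fold lower. Its log2 change was -0.90, and 1872 of the 11771 measured genes had a lower one. With equal FPKM totals it passed 2-fold lower, at a log2 change of -1.04, where 16.7% of all measured genes were 2-fold lower. Chmp4b (chromosome 2, 154651705 to 154694785, plus strand) encodes the main filament-forming subunit, which is also the one that ALIX binds. It was the most abundant of the 10 in both libraries, at 154.5 FPKM with iron plus RSL3 and 125.5 FPKM with DMSO, a ratio of 1.23. Its log2 change of 0.30 was exceeded by 1664 measured genes, and it stayed above 0 under each scaling tried, between 0.14 with equal totals and 0.52 after centring on the median ratio.

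Because a ratio of 2 genes within a library is free of the scaling between libraries, the gap between these subunits can be given directly. Chmp4b was 17.3 times the level of Chmp6 with iron plus RSL3 and 7.17 times with DMSO. Against Chmp3 it stood at 4.19 times with iron plus RSL3 and 2.54 times with DMSO. Of the summed CHMP level, Chmp4b made up 41.6% with iron plus RSL3 and 30.8% with DMSO. Chmp4b had the highest log2 change of the 10, so its larger share and its larger ratios to other subunits followed from singling it out. Chmp6 had the lowest, so a gap between Chmp4b and Chmp6 followed from that choice too. Chmp4b and Chmp6 lay at percentiles 85.9 and 15.9 of all measured genes.

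The capping subunits, which follow Chmp4b into the filament and bring in VPS4, had log2 changes between -0.41 and -0.09. Chmp3 (chromosome 6, 71543797 to 71582609, plus strand), whose product pairs with CHMP2A, was at 36.9 FPKM with iron plus RSL3 and 49.4 FPKM with DMSO, a log2 change of -0.41. Chmp2a (chromosome 7, 13032010 to 13034807, minus strand) was at 44.9 FPKM with iron plus RSL3 and 47.8 FPKM with DMSO, a log2 change of -0.09 that became 0.13 after centring. Its paralogue Chmp2b (chromosome 16, 65539128 to 65562726, minus strand), known in humans for variants in familial frontotemporal dementia, was at 36.9 FPKM with iron plus RSL3 and 45.1 FPKM with DMSO, a log2 change of -0.28. The paralogues were nearly even in both libraries, with Chmp2a at 1.22 times Chmp2b with iron plus RSL3 and 1.06 times with DMSO. Of these genes, Chmp3 lay furthest down and close to the median of all measured genes.

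The late-acting and accessory subunits split. Chmp1a (chromosome 8, 123204264 to 123212763, minus strand), whose product binds VPS4 late in disassembly, was at 32.5 FPKM with iron plus RSL3 and 55.2 FPKM with DMSO, 1.70-fold lower. Its log2 change of -0.75 was the second lowest of the 10, and by level it ranked 6 of the 10 with iron plus RSL3 and 2 of the 10 with DMSO. Chmp1b (chromosome 18, 67205366 to 67207889, plus strand), a retrogene whose product recruits the microtubule-severing enzyme spastin, was at 15.3 FPKM with iron plus RSL3 and 20.02 FPKM with DMSO, a log2 change of -0.37. Chmp1a was 2.13 times the level of Chmp1b with iron plus RSL3 and 2.76 times with DMSO. Chmp5 (chromosome 4, 40948407 to 40965303, plus strand), whose product binds the VPS4 cofactor LIP5, was at 41.3 FPKM with iron plus RSL3 and 46.8 FPKM with DMSO. Its log2 change of -0.18 became 0.04 after centring, so its direction depended on the scale.

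The ATPase paralogues differed from each other. Vps4a (chromosome 8, 107031222 to 107045755, plus strand) was at 15.9 FPKM with iron plus RSL3 and 26.0 FPKM with DMSO, 1.64-fold lower, with a log2 change of -0.68. Vps4b (chromosome 1, 106764071 to 106796728, minus strand) was at 16.6 FPKM with iron plus RSL3 and 17.6 FPKM with DMSO, a log2 change of -0.08 that became 0.12 after centring. Vps4a was therefore below Vps4b with iron plus RSL3, at 0.96 times its level, and above it with DMSO, at 1.48 times. Vps4b supplied 51.1% of the summed VPS4 level with iron plus RSL3 and 40.4% with DMSO. The sum itself was 32.4 FPKM with iron plus RSL3 and 43.6 FPKM with DMSO, a ratio of 0.74. Chmp4b stood at 9.74 times Vps4a with iron plus RSL3 and 4.82 times with DMSO. This pair sets the gene that was higher against the ATPase gene that was lower by more, and the ratio to Vps4b differed less.

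**Figure D2:**
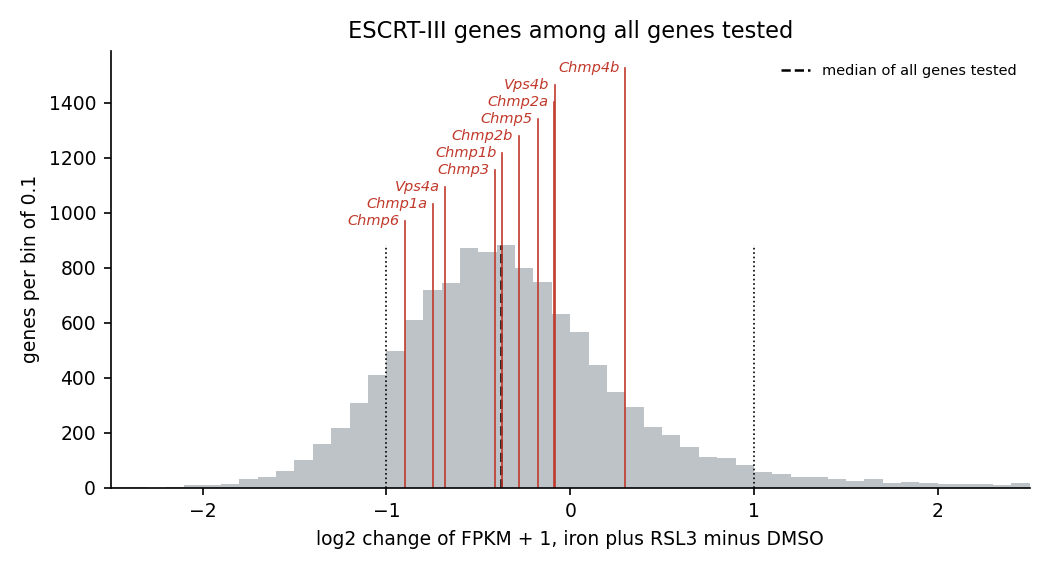
Histogram of the log2 change of FPKM + 1 (iron plus RSL3 minus DMSO) over the 11771 measured genes, in bins of 0.1, with a red line for each of the 10 ESCRT-III genes, a dashed line at the median of all measured genes and dotted lines at 2-fold; genes beyond the axis are not drawn. The lines spread from -0.90 for Chmp6 to 0.30 for Chmp4b on both sides of the median of -0.38, and none lies past 2-fold.

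The promoters of the ATPase pair, of Chmp4b and of Chmp2a are shown because these genes mark the contrast within the set: Chmp4b was the one higher on the deposited scale, Vps4a and Vps4b parted, and Chmp2a held the most motif matches. Windows run from 250 bases before to 50 bases after the RefSeq start in GRCm38.p6, read on the gene's strand. There were 9 windows for 8 of the 10 genes, and none for Chmp1b or Chmp6. Capitals mark matches, on either strand, to the motif letters given after the sequences. They are, in order, chr2:154656776-154657075 (plus strand), chr8:107031019-107031318 (plus strand), chr1:106796676-106796975 (minus strand) and chr7:13034728-13035027 (minus strand).
Chmp4b: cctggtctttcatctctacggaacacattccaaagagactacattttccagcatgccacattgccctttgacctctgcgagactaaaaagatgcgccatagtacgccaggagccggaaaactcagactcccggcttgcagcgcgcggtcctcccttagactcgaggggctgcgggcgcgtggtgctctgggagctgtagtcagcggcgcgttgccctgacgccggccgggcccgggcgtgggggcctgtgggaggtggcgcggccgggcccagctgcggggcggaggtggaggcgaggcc
Vps4a: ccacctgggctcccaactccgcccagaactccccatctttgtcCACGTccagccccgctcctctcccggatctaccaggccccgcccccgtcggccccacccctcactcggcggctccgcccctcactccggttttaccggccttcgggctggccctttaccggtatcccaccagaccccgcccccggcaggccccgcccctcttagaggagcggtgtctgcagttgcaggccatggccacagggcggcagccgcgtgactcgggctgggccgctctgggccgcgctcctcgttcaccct
Vps4b: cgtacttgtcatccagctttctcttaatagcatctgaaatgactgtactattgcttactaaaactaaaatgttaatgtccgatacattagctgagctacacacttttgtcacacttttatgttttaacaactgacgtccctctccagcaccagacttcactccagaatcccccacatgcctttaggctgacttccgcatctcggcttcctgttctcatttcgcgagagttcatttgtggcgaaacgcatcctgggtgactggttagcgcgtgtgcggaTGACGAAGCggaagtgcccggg
Chmp2a: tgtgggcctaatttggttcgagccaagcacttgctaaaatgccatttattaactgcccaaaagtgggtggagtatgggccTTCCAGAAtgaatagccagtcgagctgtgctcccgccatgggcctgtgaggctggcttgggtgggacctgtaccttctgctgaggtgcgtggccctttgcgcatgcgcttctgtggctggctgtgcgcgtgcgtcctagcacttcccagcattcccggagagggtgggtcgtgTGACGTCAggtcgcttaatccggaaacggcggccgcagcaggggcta

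The motifs were those of factors known to act in oxidative, heat, amino acid and hypoxic stress. The antioxidant response element, TGACNNNGC, lay in the windows of Chmp1a, Chmp5 and Vps4b and in 12.4% of all 32851 windows. The heat shock elements TTCNNGAA and GAANNTTC lay in 8.52% and 7.86% of all windows, and among the 8 genes with a window only Chmp2a held one, the first of these. Chmp2a also held the cyclic AMP response element TGACGTCA, found in 1.79% of all windows. The hypoxia response core ACGTG, found in 19.6% of all windows, lay in that of Vps4a alone among the 8 genes. The ATF4 composite element TGATGNAA (3.97% of all windows) and the AP-1 element TGANTCA (7.81%) lay in none of the 8. The Chmp4b window held no match to any of these letters. It lies inside the gene, downstream of the GENCODE start at 154651705, and the stretch at that start was not searched. TGACGTCA and TGACNNNGC share their first letters, and no matched stretches overlapped in these windows. A match is only a run of letters, and binding was not measured.

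Neighbouring genes with values in the table lay close to or over several of the genes. Chmp5 starts 112 bases from Bag1, a co-chaperone gene on the opposite strand, which was at 117.1 FPKM with iron plus RSL3 and 106.2 FPKM with DMSO. Vps4a overlaps the 3' part of Pdf on the opposite strand, at 1.72 FPKM with iron plus RSL3 and 3.78 FPKM with DMSO, and no strand-marking step is described in the labels, so reads in the overlap cannot be assigned. Chmp1b lies within Gnal on the same strand, which was at 0.40 FPKM with iron plus RSL3 and 0.58 FPKM with DMSO. These overlapping neighbours were far weaker than the genes themselves.

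The precision of counting can be estimated only roughly. Low values of genes with 1 annotated transcript clustered at steps that, taken as 1 fragment, make 1 FPKM on 1000 bases about 18.3 fragments with iron plus RSL3 and 16.6 fragments with DMSO. On their shortest annotated coding transcripts the 10 genes then had between 66 and 4564 fragments with iron plus RSL3 and between 118 and 3357 with DMSO. Exact 95% binomial intervals of the FPKM ratio, which cover counting error only, ran from 0.37 to 0.69 for Chmp6 and from 1.18 to 1.29 for Chmp4b. They ran from 0.55 to 0.68 for Vps4a and from 0.87 to 1.01 for Vps4b, so the paralogues' intervals did not overlap. Those of Chmp2a (0.83 to 1.07) and Vps4b held a ratio of 1 on the deposited scale. Another scale multiplies every interval by the same factor, 1.16 after centring, so which of them hold 1 depends on the scale.

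**Figure D3:**
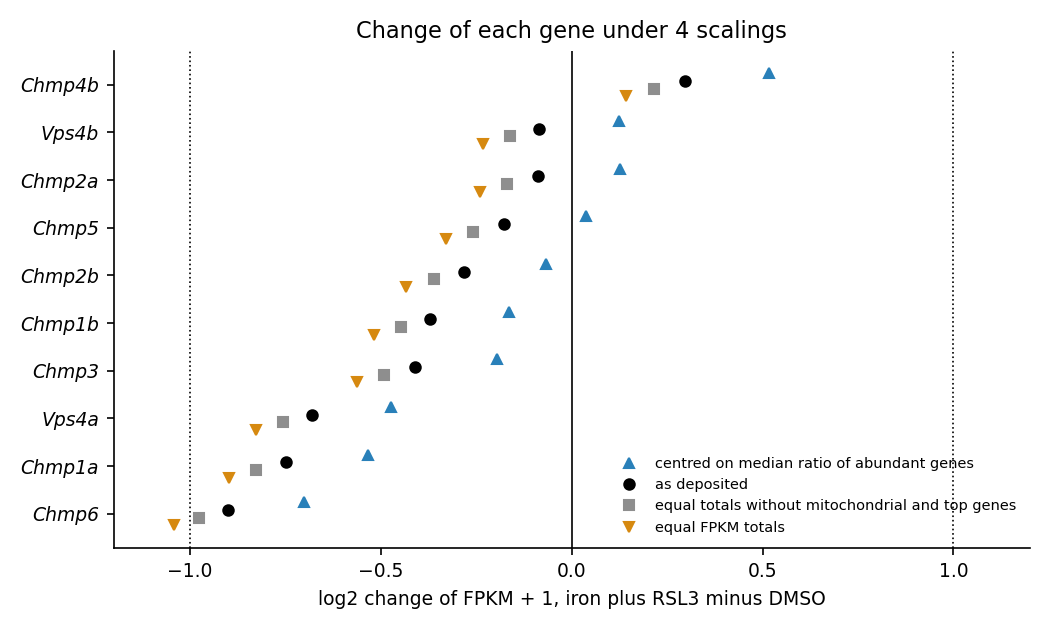
Log2 change of FPKM + 1 (iron plus RSL3 minus DMSO) of each gene on the deposited scale (black circles), with equal FPKM totals (orange triangles), with equal totals without mitochondrial and top genes (grey squares) and centred on the median ratio of abundant genes (blue triangles); dotted lines mark 2-fold. Each scaling multiplies all iron plus RSL3 values by the same factor, so the order of the genes is nearly fixed in advance. Chmp2a, Chmp5 and Vps4b cross 0 after centring, and Chmp6 passes 2-fold only with equal totals, at -1.04.

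Of the other genes of the pathway, 33 were measured, with a median log2 change of -0.29. Of these, 1 passed 2-fold higher and 3 passed 2-fold lower, beside 4.25% and 11.8% of all measured genes. By any amount, 9 were above 0 and 24 below, where 74.3% of all measured genes were below. After centring, 3 passed 2-fold higher (Vps37b, Ist1 and Stam) and 1 lower (Stambp), beside 5.74% and 6.82% of all measured genes. The balance of these counts thus depended on the scale, as it did over all measured genes. Among 9 further ESCRT-III subunits and VPS4 partners, Stambp, which encodes the endosomal deubiquitinase AMSH, was lower (4.72 FPKM with iron plus RSL3 and 12.1 FPKM with DMSO). Ist1, a late ESCRT-III-like subunit that copolymerises with CHMP1B, was at 46.6 FPKM with iron plus RSL3 and 25.6 FPKM with DMSO, a log2 change of 0.84 that passed 2-fold after centring, at 1.05. Chmp7, which starts ESCRT-III assembly at the nuclear envelope, was at 12.96 FPKM with iron plus RSL3 and 24.4 FPKM with DMSO, a log2 change of -0.86 close to that of Chmp6. The deubiquitinase gene Usp8 was at 18.6 FPKM with iron plus RSL3 and 25.3 FPKM with DMSO.

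Of the upstream complexes that bring in ESCRT-III, ESCRT-II and ESCRT-I had most of their genes below 0, as the whole profile did. In ESCRT-II, the complex that CHMP6 binds, Snf8, Vps36 and Vps25 had log2 changes of -0.51, -0.45 and -0.42. All 3 were below 0 under each scaling tried and none passed 2-fold, beside 74.3% of all measured genes below 0 on the deposited scale. Vps25, the subunit that contacts CHMP6, was at 29.0 FPKM with iron plus RSL3 and 39.3 FPKM with DMSO. In ESCRT-I, 7 of 9 genes were below 0, the median was -0.21, and 1 of 9 passed 2-fold, beside 16% of all measured genes. Vps37b, which encodes a variable subunit, was at 47.97 FPKM with iron plus RSL3 and 9.25 FPKM with DMSO, 5.18 times as high. Its rank among its own paralogues differed too, since Vps37a was at 8.20 and 9.68 FPKM and Vps37c at 11.1 and 13.9 FPKM with iron plus RSL3 and with DMSO. These 2 paralogues were chosen after their values were seen. Ubap1, another ESCRT-I subunit, was at 43.6 FPKM with iron plus RSL3 and 26.5 FPKM with DMSO, while Tsg101, the core subunit, was at 33.5 and 38.01 FPKM and changed direction after centring. Mvb12b was at 3.26 FPKM with iron plus RSL3 and 6.62 FPKM with DMSO. It was 2.03-fold lower as a plain FPKM ratio, with a log2 change of -0.84 on log2(FPKM + 1). In ESCRT-0, which gathers ubiquitinated cargo, Stam was at 27.0 FPKM with iron plus RSL3 and 14.7 FPKM with DMSO, a log2 change of 0.84 that became 1.05 after centring. Hgs stood on 2 rows, at 23.0 and 14.4 FPKM with iron plus RSL3 and 23.4 and 9.92 FPKM with DMSO. The rows had log2 changes of -0.02 and 0.49, so its value and direction are uncertain. The first, more abundant row entered the counts.

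Of the 9 measured recruiters, 2 were at least 2-fold lower and none higher, beside 11.8% and 4.25% of all measured genes. These were Cc2d1b (6.03 FPKM with iron plus RSL3 and 15.0 FPKM with DMSO) and Cc2d1a (6.48 and 14.3 FPKM), which encode CHMP4-binding proteins. Both missed 2-fold after centring, at -0.998 and -0.84. Pdcd6, which encodes the calcium sensor ALG-2 that calls ESCRT to wounded membrane, was at 55.5 FPKM with iron plus RSL3 and 66.4 FPKM with DMSO. Its partner gene Pdcd6ip, which encodes ALIX and was singled out after its value was seen, was at 46.4 FPKM with iron plus RSL3 and 68.3 FPKM with DMSO, a log2 change of -0.55. Sdcbp, which encodes the ALIX-binding adaptor syntenin, was at 163.4 FPKM with iron plus RSL3 and 128.5 FPKM with DMSO, above 0 under each scaling as Chmp4b was.

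**Figure D4:**
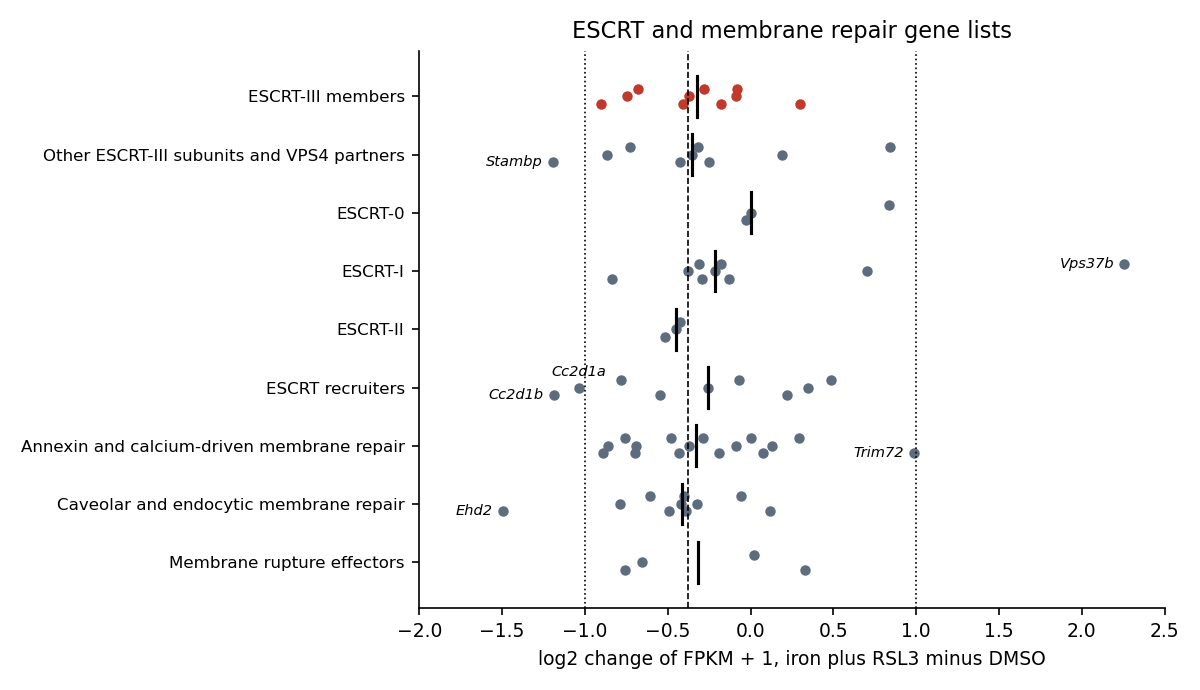
Log2 change of FPKM + 1 (iron plus RSL3 minus DMSO) of each measured gene in 9 lists, 1 point per gene, with a black bar at each list's median, a dashed line at the median of all measured genes and dotted lines at 2-fold. The ESCRT-III genes (red) lie within 2-fold; Vps37b at 2.26 is the one gene past 2-fold higher, and Stambp, Cc2d1a, Cc2d1b and Ehd2 lie past 2-fold lower.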

How the data were processed

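The data were bulk RNA-seq libraries from oligo(dT)-selected RNA, per the labels' protocols, 1 library with iron plus RSL3 and 1 with DMSO. The authors deposited FPKM values per gene; HISAT2, StringTie, DESeq2, edgeR and the build GRCm38 are named in the submitters' processing notes; their versions, the annotation release and any filtering were not given in the sources used here. No read counts were used. FPKM totals were 429250 with iron plus RSL3 and 385141 with DMSO. Columns were matched to libraries through the names in the sample labels. Values were compared as log2(FPKM + 1), over genes at 1 FPKM or more in either library, by a size rule of 2-fold, with no test, as there was 1 library per condition. Of genes below 3.5 steps, 39.5% with iron plus RSL3 and 36.4% with DMSO lay within 0.05 of a whole step, against 10% for an even spread, so whole fragments were not recovered and fragment numbers are estimates. Positions are from GENCODE M21 (GRCm38) and promoters from RefSeq (GRCm38.p6). The 10 genes and all lists were chosen with earlier results of these data known. Named genes were the 10, and from each other list those past 2-fold, the 2 most abundant and the 2 with the largest log2 change. For a symbol on several rows, the more abundant row was taken. The centring and the 2-fold calls made after it were tried on simulated counts in which as many genes were raised as lowered. The deposited values held more genes lower than higher, so that simulation cannot show how centring handles such an imbalance. The deposited scale, the fragment steps and the binomial intervals were not tried on simulated counts. Alternatives changed, one at a time, the scale, the size rule, the pseudocount and the filter. Python 3.11.15, pandas 2.3.3 and scipy 1.17.1 were used.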

Additional observations from a re-analysis of the deposited data

How the results depend on the processing

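No paired analysis was possible because each condition had 1 library, and for the same reason no library could be left out. No alternative brought any of the 10 genes past 2-fold higher. The number past 2-fold lower was 1 with equal totals (Chmp6), beside 16.7% of all measured genes. With a 1.5-fold size rule it was 3 (Chmp6, Chmp1a and Vps4a), where 34.7% of all measured genes were lower and 8.28% higher. The median of the 10 genes was -0.12 after centring and -0.48 with equal totals, and that of all measured genes moved with it, to -0.19 and -0.51. Genes past 2-fold lower numbered 803 after centring, 788 at a mean of 5 FPKM or more, 2379 with a pseudocount of 0.1 FPKM and 4089 at 1.5-fold, against 1384, and those higher 975 at 1.5-fold, against 500.

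Medians of lists are given next minus the median of all genes. With no filter that median is 0, because many genes at 0 enter, and the difference became -0.33 for the 10 genes, -0.35 for further ESCRT-III genes, 0.0042 for ESCRT-0, -0.21 for ESCRT-I, -0.45 for ESCRT-II, -0.25 for recruiters, -0.29 for annexin-type repair, -0.41 for caveolar repair and -0.44 for rupture effectors. At a mean of 5 FPKM or more it was -0.060 for further ESCRT-III genes, -0.0036 for annexin-type repair and 0.35 for rupture effectors, where fewer genes were measured. With a pseudocount of 0.1 FPKM it was 0.010 for caveolar repair. The cause of the last was not tested. The remaining 66 summary values under these alternatives kept their direction and stayed within 0.1 (log2) or 1.5 times of the reported ones.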

Other observations

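Membrane repair genes outside ESCRT comprised 26 measured genes of annexin, calpain and caveolar repair. Of these, 1 was at least 2-fold lower and none at least 2-fold higher, beside 11.8% and 4.25% of all measured genes. Trim72 passed 2-fold higher after centring, at 1.11, beside 5.74% of all measured genes. With equal totals, 3 were at least 2-fold lower, beside 16.7% of all measured genes. The median log2 change was -0.40, beside -0.38 over all measured genes. The gene past 2-fold was Ehd2, which encodes an ATPase at the neck of caveolae, at 19.1 FPKM with iron plus RSL3 and 55.6 FPKM with DMSO, 2.91-fold lower and past 2-fold under each scaling. Cavin1, a caveolar coat gene, was at 91.3 FPKM with iron plus RSL3 and 158.6 FPKM with DMSO, and Cav1 at 230.8 and 305.5 FPKM. Asah1, the acid ceramidase gene, was at 202.5 FPKM with iron plus RSL3 and 186.9 FPKM with DMSO, a direction that turned with equal totals. Both most abundant annexin genes were lower on the deposited scale: Anxa1 was at 729.6 FPKM with iron plus RSL3 and 945.4 FPKM with DMSO, and Anxa2, whose direction turned after centring, at 492.6 and 562.0 FPKM. Capn1, which encodes a calcium-activated protease of repair, was at 12.03 FPKM with iron plus RSL3 and 23.1 FPKM with DMSO, past 2-fold lower with equal totals. Trim72, a repair gene known from muscle, was at 1.26 FPKM with iron plus RSL3 and 0.14 FPKM with DMSO, near the lower limit of what these libraries measure.

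Among genes that rupture membranes, Ninj1, whose product breaks the plasma membrane late in lytic death, was at 35.9 FPKM with iron plus RSL3 and 28.4 FPKM with DMSO, above 0 under each scaling. Mlkl, the necroptosis effector gene, was at 34.0 and 33.5 FPKM, with a direction that depended on the scale. The gasdermin genes Gsdmd (17.8 FPKM with iron plus RSL3 and 28.6 FPKM with DMSO) and Gsdme (1.81 and 3.74 FPKM) were lower under each scaling. None of the 4 measured rupture genes passed 2-fold on log2(FPKM + 1), beside 4.25% of all measured genes higher and 11.8% lower. So few genes do not set the list apart from those shares. Gsdme, at low values, was 2.07-fold lower as a plain FPKM ratio, with a log2 change of -0.76.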
